A study of Homo sapiens with 8 samples.

Results

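The genes described here are the ligands, receptors, SMAD transducers, extracellular antagonists and target genes of the BMP, activin and TGF-beta pathways. They were taken by name from a list of 44 genes. No measured value entered the rule, but earlier results of these data were known when this list and the marker lists below were chosen. Of these, 43 had a row among the 20339 genes of the count table, and GREM1 is not analysed here. By role they comprise 12 ligands or ligand subunits, 12 receptors and coreceptors, 8 SMADs, the 4 ID genes, 5 antagonists, and LTBP1 and CCN2.

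RNA-seq had been performed on 2 established human ovarian carcinoma cell lines, OVCAR3 and COV318, in which the matrix Gla protein gene (MGP) was manipulated, with 8 libraries and 1 library per condition. OVCAR3-MGPKO cells carried a CRISPR-Cas9 knockout made with a pair of guides against the first exon of MGP, and OVCAR3-CTR cells were their control, both at passage 4. COV318-MGP cells carried a lentivirus with the MGP cDNA and COV318-CTR cells the empty vector, both after puromycin selection and both at passage 18. Each of the 4 cell types was grown adherent in serum-containing medium (bulk) and as the second generation of non-adherent spheres in serum-free medium with growth factors, the culture used to enrich ovarian cancer stem cells (OCSC). The sources used here do not say how many clones the OVCAR3 libraries represent, nor what the OVCAR3-CTR cells had received. Spheres and serum withdrawal went together and cannot be told apart. Nor can cell line, passage and the medium and serum level of adherent culture, which also went together.

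BMPs, activins and TGF-betas are secreted dimers that bring together type I and type II serine/threonine kinase receptors. BMP receptors pass the signal to SMAD1, SMAD5 and SMAD9, activin and TGF-beta receptors pass it to SMAD2 and SMAD3, and both groups enter the nucleus with SMAD4. The ID genes, which encode inhibitors of basic helix-loop-helix factors, and SMAD6 are classic targets of the BMP branch, SMAD7 and CCN2 (connective tissue growth factor) of the TGF-beta branch, and MGP is a matrix protein known to bind BMPs. In ovarian carcinoma both branches are known to act on adhesion, invasion and stem-like growth.

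The libraries held 12294591 to 37393919 counts on genes. MGP had 40393 and 28694 counts in the COV318-MGP bulk and OCSC libraries and 0 to 2 counts in each of the other 6, so its own counts did not tell the OVCAR3 libraries apart and their labels could not be checked with it. The paper reports MGP protein as detectable in OVCAR3 cells and its loss in the knockout by RT-qPCR, western blot and immunofluorescence. Why OVCAR3-CTR bulk and OCSC held only 0 and 1 MGP counts was not tested. All 14 epithelial carcinoma markers had more than 3 counts in each OVCAR3 and COV318-CTR library, the lowest being MUC1 with 20 in OVCAR3-CTR bulk. This floor does not by itself establish a cell type, and COV318-CTR also held markers of other cells, given below. In COV318-MGP, 8 of 14 markers in bulk and 7 of 14 in OCSC had 3 counts or fewer, with KRT7, CLDN3, PAX8 and SOX17 at 0 in both. With MGP, summed normalized counts of the markers fell short of the control in bulk, at 2027 against 51258, and in OCSC, at 8525 against 19610.2. KRT8 and KRT18, set apart after their values were seen, went the other way in OCSC. Together they were at 8293 with MGP against 3718 in OCSC, and at 1721 against 20066 in bulk. The other 12 markers summed to 232 against 15892 in OCSC and to 306 against 31192 in bulk. Markers of other cells moved too. UPK3B, a mesothelial marker, had 13158 counts in COV318-CTR bulk and 1 in COV318-MGP bulk, and 1855 and 1 in OCSC. On the same list, LRRN4 had 1436 and 1 in bulk and 406 and 1 in OCSC. DES, also listed, had 3 and 10 counts in bulk and 18 and 7 in OCSC. Of 7 genes known from the HEK293 lineage, 4 were called higher and 2 lower with MGP in bulk, by the rule given below. Of all genes, 24.5% and 26.3% were called so. In OCSC 5 of 6 were called higher and 1 lower, against 27.0% and 27.3% of all genes. The neurofilament genes NEFL and NEFM had 0 counts in both COV318-CTR libraries and 2564 and 891 in COV318-MGP bulk and 857 and 490 in OCSC. NEFH, a neurofilament gene on the same list, went the other way, from 14 counts to 0 in bulk and from 3 to 0 in OCSC. DPPA4 went from 19621 counts to 2 in bulk and from 3614 to 0 in OCSC. The COV318-MGP libraries thus differ from COV318-CTR in marker genes of the cell line as well as in MGP, and whether they hold the same cells as COV318-CTR was not tested. Every COV318 value given as with MGP below compares these libraries as labelled, no value without them can be had, and the part of this shift in the values was not tested.

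Levels are given as normalized counts, the count divided by the library's size factor. With 1 library per condition there is no test, and differences are given as log2FC, the log2 ratio of normalized counts after adding 1 to each. Intervals in parentheses are exact Clopper-Pearson 95% intervals for the ratio of the 2 counts or, for a gene's share of its family, for its part of the family's counts, rescaled to lengths, and cover counting error only. A gene was called higher or lower at a log2FC of at least 1 in size, provided that 1 library of the pair had more than 3 counts, and the share of all genes called in the same way is given as the background.

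Across the 8 libraries, 33 of the 43 genes were above 3 counts in every library and 26 had at least 50 counts in every library. Ranked by normalized count per kilobase of exon within each library, CCN2 was number 1 in OVCAR3-CTR bulk and in COV318-CTR bulk, ID1 in OVCAR3-MGPKO bulk, and BMP7 in both OVCAR3 OCSC libraries and in COV318-CTR OCSC. In both COV318-MGP libraries the first 2 ranks were held by ID2 and ID4. At the other end, 5 genes had 3 counts or fewer in at least 4 libraries, namely BMP2, BMP5, INHBA, ACVRL1 and ID3. BMP2 and INHBA were in this group through the OVCAR3 libraries alone, where they had 0 to 3 counts.

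With MGP knocked out, 17 of 40 genes were called in OVCAR3 bulk, against a background of 24.1% of all genes, and these were 11 higher and 6 lower, against 15.1% and 9.00%. In OVCAR3 OCSC 9 of 38 were called, against 14.9%, with 2 higher and 7 lower, against 9.17% and 5.69%. With MGP expressed, 32 of 43 were called in COV318 bulk, against 50.8%, with 14 higher and 18 lower, against 24.5% and 26.3%. In COV318 OCSC 23 of 41 were called, against 54.2%, with 14 higher and 9 lower, against 27.0% and 27.3%. The last share, 56.1%, was near its background, whereas 42.5%, 23.7% and 74.4% were above theirs. Median log2FC over the members was 0.08, -0.21, -0.54 and 0.28 in this order, and over all genes tested 0.03, -0.00249, -0.0374 and 0.00159. Mesenchymal markers moved with the knockout in OVCAR3, where 4 of 5 tested were called higher in bulk and 2 of 7 higher and 1 lower in OCSC, with sums of 285 and 583 in bulk and 920.4 and 3132 in OCSC. VIM (vimentin) carried most of the latter, at 298 and 2499, and of the 14 epithelial markers KRT19, CDH1 and WT1 were called lower and MUC1 higher in OCSC. The part of these markers in the OVCAR3 values was not tested. In cultures measured as bulk RNA, fewer expressing cells and less RNA per cell cannot be told apart.

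**Figure D1:**
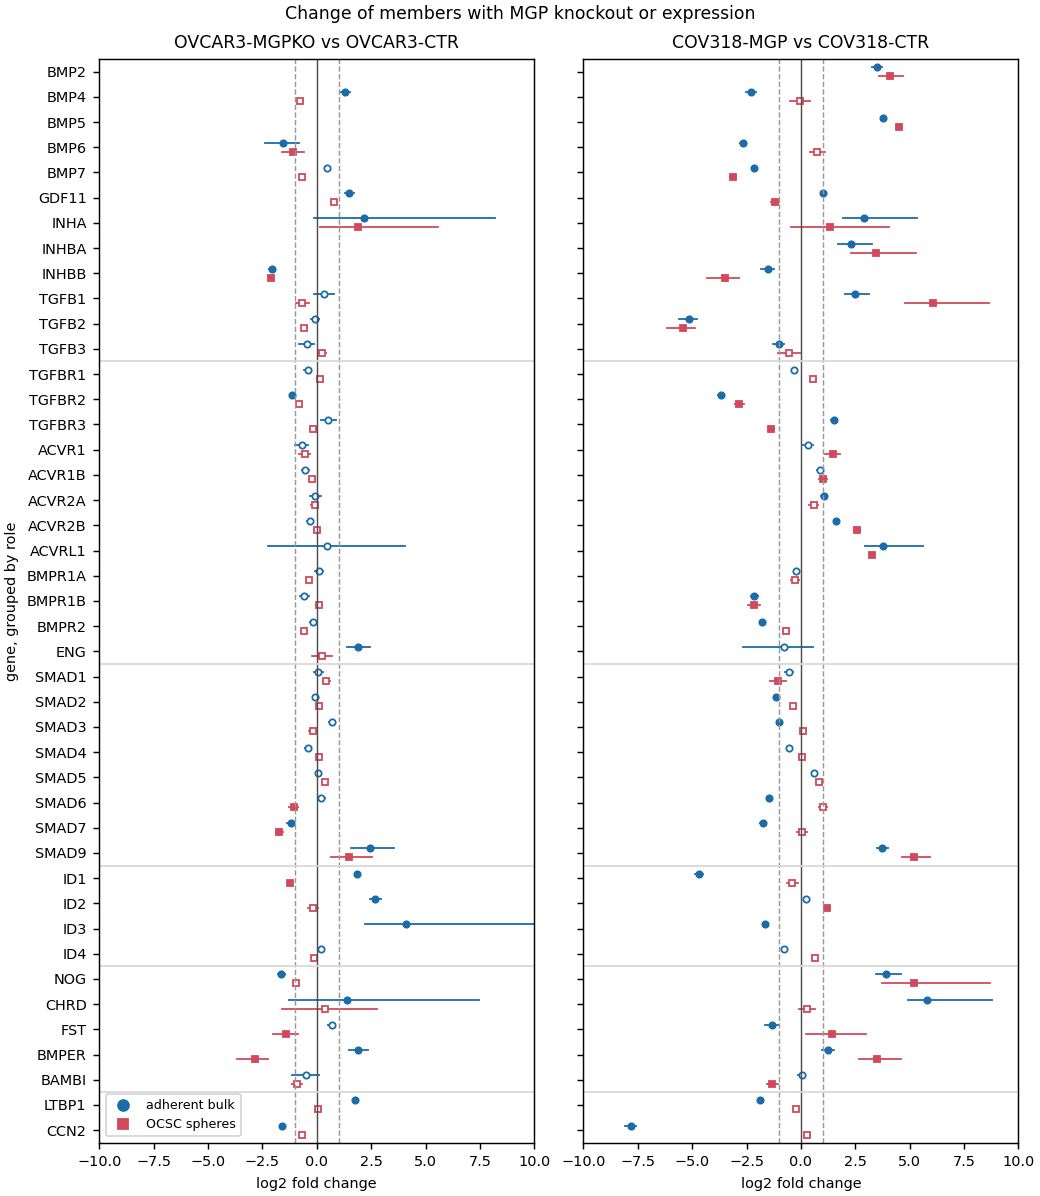
Log2 fold change of the 43 genes with MGP knockout in OVCAR3 (left) and with MGP expression in COV318 (right), in bulk (circles) and OCSC (squares). Filled symbols are past the threshold of 1 (dashed lines), bars are 95% counting intervals, left out where a library had 0 counts, pairs with 3 counts or fewer in both libraries are not drawn, and the ID3 bar in OVCAR3 bulk runs past the axis. INHBB lies to the left and SMAD9 to the right of the dashed lines in all 4 comparisons.

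Among the genes tested in all 4 of these comparisons, INHA and SMAD9 were called higher in each, or 2 of 37 against 1.22% of all genes, and INHBB was called lower in each, or 1 of 37 against 0.480%. Called in none were TGFBR1, BMPR1A, SMAD4, SMAD5 and ID4, or 5 of 37 against 34.2% of all genes, and called in opposite directions in at least 1 pair of comparisons were 8 of 37 against 11.2%. Within OVCAR3, BMP6 and SMAD7 joined INHBB as lower in both cultures, or 3 of 38 against 1.63% of all genes, INHA and SMAD9 were higher in both, or 2 of 38 against 3.59%, and ID1 and BMPER were called in opposite directions, or 2 of 38 against 1.52%. Within COV318, 10 of 41 were higher and 5 of 41 lower in both cultures, against 18.1% and 18.9%, and GDF11, TGFBR3 and FST were called in opposite directions, or 3 of 41 against 1.29%. These 4 comparisons have no library in common, but the 2 cultures of a line were grown from the same manipulated and control cells. A difference between those cells other than MGP would enter both cultures, so the 4 comparisons are not independent.

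INHBB encodes the beta-B subunit of activin B and inhibin B. It stood at 5864 and 1387 normalized counts in OVCAR3-CTR and OVCAR3-MGPKO bulk and at 4344 and 1002 in their OCSC. In COV318 it was 206 and 70.4 in COV318-CTR and COV318-MGP bulk and 302 and 25.8 in OCSC. The manipulated library was thus the lower one of each pair, with a log2FC of -2.08 (-2.17 to -1.99) and -2.12 (-2.21 to -2.02) in OVCAR3 and of -1.53 (-1.85 to -1.25) and -3.50 (-4.33 to -2.85) in COV318. By the labels, MGP was knocked out in OVCAR3 and expressed in COV318, but the OVCAR3 libraries do not differ in MGP counts beyond 0 to 2. INHA, the alpha subunit that turns activin into inhibin, was close to its detection limit, with 1 and 9 counts in OVCAR3 bulk, 2 and 11 in OCSC, 4 and 41 in COV318 bulk and 3 and 9 in OCSC. Its log2FC was 2.16, 1.89, 2.90 and 1.35 in this order, and the interval included no change in OVCAR3 bulk (-0.11 to 8.20) and in COV318 OCSC (-0.47 to 4.05). INHBA, the beta-A subunit, had at most 3 counts in each OVCAR3 library, and was at 9.70 and 52.2 in COV318 bulk and 7.43 and 90.2 in COV318 OCSC, higher with MGP in both (2.32 and 3.44).

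SMAD9 encodes SMAD8, a transducer of the BMP branch. Its levels were 17.0 and 95.4 in OVCAR3-CTR and OVCAR3-MGPKO bulk, 13.1 and 38.5 in OCSC, 88.9 and 1191 in COV318-CTR and COV318-MGP bulk and 32.7 and 1245 in OCSC. The log2FC was 2.42 (1.58 to 3.55), 1.49 (0.66 to 2.54), 3.73 (3.52 to 3.98) and 5.21 (4.64 to 5.93) in the same order. The COV318-MGP libraries thus stood above the other 6, of which the highest was OVCAR3-MGPKO bulk. The stretches before the annotated starts of INHBB and SMAD9 are shown because these genes were called in 1 direction in all 4 comparisons. The letters are RefSeq sequence on GRCh38.p14, 5′ to 3′ in the direction of the gene, for the 250 bases before the start, which is chr2:120345886-120346135 on the plus strand for INHBB and chr13:36920239-36920488 on the minus strand for SMAD9. Capitals mark GGCGCC, a core found in BMP response elements, and CAGAC or its reverse complement GTCTG, which contain the SMAD box. INHBB held GGCGCC at 2 places and SMAD9 held none of these letters. The SMAD9 window lies inside the span of the gene in the GENCODE annotation, chr13:36844831-36920887. It thus precedes the start site used here but not the GENCODE start of the gene, which on the minus strand is at 36920887.
INHBB: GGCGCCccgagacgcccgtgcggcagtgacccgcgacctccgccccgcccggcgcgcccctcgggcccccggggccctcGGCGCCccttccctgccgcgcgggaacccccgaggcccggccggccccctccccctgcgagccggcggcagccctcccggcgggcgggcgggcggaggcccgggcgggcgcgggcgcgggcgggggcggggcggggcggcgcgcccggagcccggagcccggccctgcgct
SMAD9: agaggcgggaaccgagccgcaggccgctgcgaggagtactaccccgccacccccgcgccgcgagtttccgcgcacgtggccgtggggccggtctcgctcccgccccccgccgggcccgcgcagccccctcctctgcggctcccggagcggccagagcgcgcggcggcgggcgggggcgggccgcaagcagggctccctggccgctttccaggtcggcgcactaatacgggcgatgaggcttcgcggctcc

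Such windows were given for 39 of the 43 genes, with 69 start sites in all, and not for BMP2, BMP7, ACVRL1 and NOG. GGCGCC was present in 16 of these 69 windows (23.2%) and in 16.4% of all 35116 windows of the same length. CAGAC or GTCTG was present in 25 of 69 (36.2%) and in 38% of all windows. Both strands were searched, and no matches overlapped in the windows printed here.

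The BMP ligands were carried by BMP7 in OVCAR3. BMP7, a ligand known from kidney and skeletal development, was at 5775 and 7924 in OVCAR3-CTR and OVCAR3-MGPKO bulk and 15703 and 9833 in OCSC. It made up 85.6 to 90.7% of the summed counts per kilobase of BMP2, BMP4, BMP5, BMP6 and BMP7 across the 4 OVCAR3 libraries. Neither knockout comparison reached the threshold for BMP7 (0.46 and -0.68). BMP4, a ligand of early mesoderm and epithelial patterning, was at 276 and 677 in bulk and 1426 and 840.2 in OCSC, and was called higher with knockout in bulk (1.29, 1.05 to 1.54) while it was -0.76 (-0.88 to -0.65) in OCSC. BMP6, known for the control of hepcidin, was called lower in both, from 72.5 to 24.1 in bulk and from 91.5 to 42.8 in OCSC, where the log2FC of -1.08 fell under the threshold, to -0.95, when libraries were scaled to their totals (CPM).

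In COV318 the make-up of the BMP ligands differed with MGP. BMP2, a potent osteogenic ligand, was at 85.1 and 960.3 in COV318-CTR and COV318-MGP bulk and at 46.1 and 795 in OCSC, with a log2FC of 3.48 (3.26 to 3.74) and 4.08 (3.59 to 4.68). BMP7 went the other way, from 4138 to 918 in bulk and from 6999 to 795 in OCSC (-2.17 and -3.14). As a share of the 5 BMP ligands per kilobase, BMP2 was 1.80% in COV318-CTR and 50.5% (48.9 to 52.0%) in COV318-MGP bulk, and 0.936% and 45.7% (43.1 to 48.4%) in OCSC. BMP7 had been at 57.2% and 92.9% in the controls and was at 31.5% and 29.9% with MGP. BMP5 had 0 counts in both COV318-CTR libraries and 23 and 15 counts in COV318-MGP, at least 7.83-fold and at least 4.82-fold higher. BMP4 and BMP6 were called lower with MGP in bulk (-2.28 and -2.66) and in neither direction in OCSC (-0.037 and 0.76). Up to 16.3% of the exon bases of BMP4 were shared with other genes, and the sources used here do not say whether counting used the strand.

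GDF11, a ligand of the activin branch, was at 342 and 963 in OVCAR3 bulk and 1074 and 1873 in OCSC, called higher with knockout in bulk alone (1.49, against 0.80 in OCSC). In COV318 it was 378 and 773 in bulk and 1091 and 482 in OCSC, higher with MGP in bulk and lower in OCSC (1.03 and -1.18).

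The 3 TGF-beta ligands were not called with MGP knockout in either culture, with TGFB1 at 105 and 132 in bulk and 221 and 139 in OCSC, TGFB2 at 635 and 599.8 and then 1076 and 725, and TGFB3 at 224 and 163 and then 344 and 408. In COV318 the ligands TGFB1 and TGFB2 exchanged places. TGFB2, the isoform with low affinity for TGFBR2 in the absence of TGFBR3, was at 1100.4 and 30.2 in COV318-CTR and COV318-MGP bulk and at 1413 and 31.5 in OCSC, with a log2FC of -5.14 (-5.60 to -4.80) and -5.44 (-6.17 to -4.88). TGFB1, the most widely expressed of the isoforms, was at 18.3 and 106 in bulk and 4.46 and 366 in OCSC, with 2.47 (2.00 to 3.11) and 6.07 (4.80 to 8.65), the latter against a library with 3 counts. TGFB2 therefore made up 80.0% and 90.5% of the 3 ligands per kilobase in COV318-CTR bulk and OCSC and 8.74% and 3.91% in COV318-MGP, whereas TGFB1 was at 2.47% and 0.529% and then at 56.8% (52.0 to 61.5%) and 84.4% (80.7 to 87.5%). With the length of the canonical transcript in place of all exon bases, TGFB1 held 52.1% and 81.9% in COV318-MGP. TGFB2 shares 34.2% of its exon bases with the overlapping TGFB2-AS1 and TGFB2-OT1. TGFB3 was called lower in COV318-MGP bulk at -1.01 but lay within the threshold under each of the other 3 scalings.

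Of the receptors in OVCAR3, 2 of 12 were called in bulk, TGFBR2 and ENG, against a background of 24.1%, and 0 of the 11 tested in OCSC, against 14.9%. TGFBR2, the type II receptor for TGF-beta, was at 6979 and 3197 in bulk and 10994 and 6152 in OCSC, lower with knockout at -1.13 (-1.20 to -1.06) and -0.84 (-0.88 to -0.79), of which the first was past the threshold and fell to -0.98 under CPM. ENG (endoglin), a coreceptor best known from endothelium, was at 57.1 and 215 in bulk and 69.1 and 82.2 in OCSC, called higher in bulk (1.89, 1.40 to 2.46). The 4 endothelial markers, summed, were at 142 and 183 in these OVCAR3 bulk libraries.

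In COV318, TGFBR2 was at 3471 and 269 in COV318-CTR and COV318-MGP bulk and 2196 and 308 in OCSC, with a log2FC of -3.68 (-3.83 to -3.56) and -2.83 (-3.05 to -2.63). The COV318-MGP libraries held the lowest values of this receptor among the 8. BMPR1B, a type I receptor for BMPs, was lower in the same way, at 991 and 224 in bulk and 773 and 173 in OCSC (-2.14 and -2.15), while BMPR1A was within the threshold in both cultures. ACVR2B, a type II receptor for activins and GDF11, was higher, at 1217 and 3759 in bulk and 811 and 4819 in OCSC (1.63 and 2.57). TGFBR3 (betaglycan), which presents TGFB2, was at 460.0 and 1313 in bulk and 2837 and 1101 in OCSC, so that the library with MGP was higher in bulk (1.51) and lower in OCSC (-1.36). ACVRL1 (ALK1), a type I receptor of endothelium, had 6 and 103 counts in bulk (3.77, 2.96 to 5.61) and 0 and 6 counts in OCSC, at least 1.93-fold higher. BMPR2 was called lower in bulk (-1.78), ACVR2A higher in bulk (1.04) and ACVR1 and ACVR1B higher in OCSC (1.45 and 1.01). ACVR1B lay within the threshold under each of the other 3 scalings. Across the 8 libraries TGFBR1, the type I receptor for TGF-beta, ranged from 766 to 3277 and BMPR1A from 710.0 to 1450.5.

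Of the SMADs, the common partner SMAD4 and the BMP-branch SMAD5 were not called in any of the 4 comparisons and ranged from 1388 to 2430.2 and from 1354 to 3789 over the 8 libraries. SMAD7, an inhibitory SMAD that recruits ubiquitin ligases to type I receptors, was at 1308 and 572 in OVCAR3 bulk and 1208 and 364 in OCSC, lower with knockout in both (-1.19, -1.35 to -1.03, and -1.73, -1.89 to -1.57). In COV318 it was 1292 and 381 in bulk and 447 and 464 in OCSC, lower with MGP in bulk (-1.76) and near equal in OCSC (0.0522, -0.18 to 0.28). SMAD6, the inhibitory SMAD of the BMP branch, was at 1061 and 1232 in OVCAR3 bulk and 619 and 296 in OCSC, called lower with knockout in OCSC at -1.06, which was -0.94 under CPM. In COV318 SMAD6 was 3544 and 1297 in bulk and 562 and 1121 in OCSC, called lower in bulk (-1.45) and 0.996 in OCSC, just inside the threshold. The TGF-beta transducers SMAD2 and SMAD3 were called with MGP in COV318 bulk and in none of the other 3 comparisons (-1.14 and -1.02), SMAD2 lying within the threshold under CPM and SMAD3 under each of the other 3 scalings, and SMAD1 was called lower in COV318 OCSC (-1.03).

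The genes ID1, ID2 and ID3 were higher in the adherent knockout cells. ID1 was at 2274 and 8310.1 in OVCAR3-CTR and OVCAR3-MGPKO bulk, ID2 at 225 and 1435 and ID3 at 1.54 and 42.5. The log2FC was 1.87 (1.79 to 1.95), 2.67 (2.42 to 2.93) and 4.10 (2.22 to 10.13), the last resting on 1 and 37 counts. All 3 kept this direction and call under TMM, CPM and pairwise scaling. ID4, at 2229.7 and 2514, was not called (0.17, 0.0767 to 0.27). In OCSC, ID1 was at 2932 and 1239 and was called lower with knockout (-1.24, -1.33 to -1.15), ID2 (268 and 237) and ID4 (775 and 716) were not called, and ID3 had 2 counts or fewer.

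In COV318, ID1 was at 3853 and 150.1 in COV318-CTR and COV318-MGP bulk, a log2FC of -4.67 (-4.86 to -4.51), and at 476 and 362 in OCSC, where it was -0.39 (-0.64 to -0.15). COV318-MGP bulk held the lowest ID1 level of the 8 libraries and OVCAR3-MGPKO bulk the highest. ID2 did not follow ID1: it was at 3087 and 3616 in bulk and 951 and 2213 in OCSC, called higher with MGP in OCSC (1.22, 1.08 to 1.35). As a share of the 4 ID genes per kilobase, ID1 was 51.2% in COV318-CTR and 4.57% in COV318-MGP bulk, while ID2 was 22.9% and 61.3%. ID3 had 4 counts or fewer in each COV318 library, and was called lower with MGP in bulk on 4 and 0 counts, with an interval that included no change.

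The windows before the starts of ID1 and ID3, genes higher in the knockout bulk library, and of CCN2, described next, are shown in the same way, at chr20:31605039-31605282 on the plus strand, chr1:23559502-23559751 on the minus strand and chr6:131951373-131951622 on the minus strand. The last 6 bases of the ID1 window were left off because GENCODE places them in its first exon. ID3 and CCN2 held CAGAC at 1 place each, starting 147 and 177 bases before the start, and ID1 held neither motif in this stretch.
ID1: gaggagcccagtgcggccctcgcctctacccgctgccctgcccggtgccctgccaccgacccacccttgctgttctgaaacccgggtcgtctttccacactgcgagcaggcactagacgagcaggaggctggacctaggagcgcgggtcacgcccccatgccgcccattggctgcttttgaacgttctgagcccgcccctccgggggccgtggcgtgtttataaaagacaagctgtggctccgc
ID3: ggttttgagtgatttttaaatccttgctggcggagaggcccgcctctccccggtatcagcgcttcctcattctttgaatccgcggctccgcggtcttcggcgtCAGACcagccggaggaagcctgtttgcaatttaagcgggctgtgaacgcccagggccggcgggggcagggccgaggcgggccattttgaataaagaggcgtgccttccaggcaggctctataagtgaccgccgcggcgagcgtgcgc
CCN2: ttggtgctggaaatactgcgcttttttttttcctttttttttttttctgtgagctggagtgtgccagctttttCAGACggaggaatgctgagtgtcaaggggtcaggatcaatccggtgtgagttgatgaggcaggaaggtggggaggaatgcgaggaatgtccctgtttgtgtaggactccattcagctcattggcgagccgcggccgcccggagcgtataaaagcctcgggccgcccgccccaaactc

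CCN2, a secreted matricellular protein, was at 5684 and 1873 in OVCAR3-CTR and OVCAR3-MGPKO bulk and 1853 and 1162 in OCSC, called lower with knockout in bulk (-1.60, -1.69 to -1.52) and not in OCSC (-0.67, -0.77 to -0.57). In COV318 bulk it was 17157 and 75.3, 228-fold lower with MGP (-7.81, -8.08 to -7.59), while in OCSC it was 881 and 1071 (0.28, 0.12 to 0.44). The bulk difference was thus the largest in size of any gene on the list in the 4 comparisons. LTBP1, which tethers latent TGF-beta to the matrix, was at 2154 and 7187 in OVCAR3 bulk and 797 and 828 in OCSC, called higher with knockout in bulk (1.74, 1.65 to 1.82) and near equal in OCSC (0.0546, -0.0803 to 0.19). In COV318 it was 7509 and 2039 in bulk and 1737 and 1506 in OCSC, lower with MGP in bulk (-1.88, -1.93 to -1.83) and not called in OCSC (-0.21). For both genes a call was made in bulk and none in OCSC in either line. CCN2 shares 11.9% of its exon bases with LINC01013.

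Among the antagonists, NOG (noggin), which blocks BMP ligands directly, was at 1608 and 519 in OVCAR3-CTR and OVCAR3-MGPKO bulk and 1197 and 623 in OCSC, lower with knockout at -1.63 (-1.79 to -1.47) and -0.94 (-1.08 to -0.81), of which the first was past the threshold. In COV318 it was 15.6 and 251 in bulk and 2.97 and 145 in OCSC, higher with MGP in both (3.92, 3.47 to 4.60, and 5.20, 3.71 to 8.67). NOG was thus lower in the libraries labelled as knockout, past the threshold in bulk alone, and higher in those labelled as expressing MGP. The last value rested on 2 counts in COV318-CTR OCSC. MGP itself had 0 to 2 counts in every OVCAR3 library, so its removal is not seen in these counts. Whether NOG follows MGP was not tested. CHRD (chordin) had 6 counts or fewer in each OVCAR3 library, where its call in bulk rested on 1 and 5 counts (1.41, -1.26 to 7.46). In COV318 it had 3 counts in COV318-CTR bulk and 264 in COV318-MGP bulk (5.80, 4.93 to 8.78), with 162 and 195 normalized counts in OCSC (0.26, -0.11 to 0.64). BMPER, a chordin-like regulator, was at 89.4 and 337 in OVCAR3 bulk and 131 and 17.5 in OCSC, called higher with knockout in bulk (1.90, 1.50 to 2.34) and lower in OCSC (-2.83, -3.66 to -2.22). In COV318 BMPER was higher with MGP in both cultures, at 85.1 and 203 in bulk and 16.3 and 192 in OCSC (1.25 and 3.47).

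FST (follistatin), which traps activins, was at 662 and 1066 in OVCAR3 bulk and 87.7 and 32.3 in OCSC, called lower with knockout in OCSC (-1.41, -2.03 to -0.88). In COV318 it was 141 and 56.1 in bulk and 10.4 and 30.1 in OCSC, lower with MGP in bulk (-1.31) and higher in OCSC (1.45, 0.24 to 3.01), where the libraries held 7 and 21 counts. BAMBI, a decoy receptor without kinase, was called with MGP in COV318 OCSC and in none of the other 3 comparisons, at 691 and 278 (-1.31, -1.56 to -1.07), and stood at 382 and 389.9 in COV318 bulk.

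The same libraries allow spheres to be set against adherent cells within each cell type. In OVCAR3-CTR 10 of 37 genes were called, against a background of 27.5% of all genes, with 6 higher and 4 lower in OCSC, against 14.3% and 13.2%. In OVCAR3-MGPKO 15 of 40 were called, against 19.2%, with 3 higher and 12 lower, against 8.33% and 10.8%. In COV318-CTR 20 of 42 were called, against 21.0%, with 3 higher and 17 lower, against 10.9% and 10.1%, and with a median log2FC of -0.71 over the members and -0.0363 over all genes tested. In COV318-MGP 6 of 42 were called, against 19.6%, with 4 higher and 2 lower, against 10.3% and 9.36%, but scaling by library totals made this 10, with 4 higher and 6 lower. Of the 37 genes tested in all 4 cell types, 13 were called in none, against 56.7% of all genes, and 5 in opposite directions, against 9.27%, namely BMP4, TGFB1, SMAD3, ID1 and CCN2. Every library here also enters the comparisons on MGP above, so that the values are not independent of those.

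ID4 was lower in spheres of 3 cell types, from 2229.7 to 775 in OVCAR3-CTR, from 2514 to 716 in OVCAR3-MGPKO and from 6117 to 1391 in COV318-CTR (-1.52, -1.81 and -2.14), and was not called in COV318-MGP (-0.70). ID1 was lower in spheres by 2.74 in OVCAR3-MGPKO and by 3.02 in COV318-CTR on the log2 scale, not called in OVCAR3-CTR (0.37) and higher in COV318-MGP (1.26, 1.02 to 1.52). ID2 was likewise lower in OVCAR3-MGPKO (-2.59) and COV318-CTR (-1.70), and not called in OVCAR3-CTR (0.25) and COV318-MGP (-0.71). In OVCAR3-MGPKO and COV318-CTR all 4 ID genes were called lower, ID3 in COV318-CTR on 4 and 0 counts with an interval that included no change. The ID genes stood in OVCAR3-MGPKO spheres at levels near those of OVCAR3-CTR spheres for ID2 and ID4, and below them for ID1.

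CCN2 was lower in spheres by 1.62 in OVCAR3-CTR and by 4.28 in COV318-CTR on the log2 scale, was not called in OVCAR3-MGPKO (-0.69), and was higher by 3.81 (3.56 to 4.10) in COV318-MGP. The 4 sphere libraries held 881 to 1853 normalized counts of CCN2 and the 4 adherent libraries 75.3 to 17157. LTBP1 was called lower in spheres of OVCAR3-CTR (-1.43), OVCAR3-MGPKO (-3.12) and COV318-CTR (-2.11), and FST in the same 3 (-2.90, -5.00 and -3.63). Both were within the threshold in COV318-MGP (-0.44 and -0.88). SMAD6 was called lower in OVCAR3-MGPKO and COV318-CTR spheres (-2.06 and -2.66), and SMAD7 in COV318-CTR (-1.53).

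The ligand GDF11 and the coreceptor TGFBR3 were called higher in spheres of both control cell types. In OVCAR3-CTR spheres, BMP4 (2.37), BAMBI (2.51), TGFBR3 (1.82), GDF11 (1.65), BMP7 (1.44) and TGFB1 (1.07, 0.996 under CPM) were called higher. In OVCAR3-MGPKO spheres, BAMBI (2.12), TGFB3 (1.32) and TGFBR3 (1.14) were. In COV318-CTR spheres, TGFBR3 was again called higher (2.62), with GDF11 (1.53) and CHRD, which had 3 counts in bulk and 109 in OCSC (5.96, 5.06 to 8.95), whereas BMP4 (-1.94), BMP6 (-3.15) and TGFB1 (-1.82) were called lower. BMPER was lower in OVCAR3-MGPKO (-4.19) and COV318-CTR (-2.31) spheres. In COV318-MGP spheres, TGFB1 (1.78) and SMAD3 (1.36) were called higher beside ID1 and CCN2, and INHBB (-1.42) and ACVRL1 (-2.59) lower. The summed epithelial markers given above were lower in COV318-CTR OCSC than in bulk and higher in COV318-MGP OCSC than in bulk. The latter rise lay in KRT8 (306 to 1407) and KRT18 (1415 to 6886), while the other 12 markers summed to 306 in bulk and 232 in OCSC, and their part in these values was not tested.

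The control libraries of the 2 lines also differ in passage and in the medium and serum level of adherent culture, and COV318-CTR carried the empty vector. These differences cannot be told apart from cell line. In bulk, 20 of 41 genes were called different, against a background of 54.3% of all genes, with 7 higher and 13 lower in OVCAR3-CTR, against 24.8% and 29.4%. In OCSC this was 23 of 39, against 55.9%, with 14 higher and 9 lower, against 26.9% and 29.0%, and the split was 11 and 11 under CPM. Both shares were close to their background. NOG (6.60 in bulk and 8.24 in OCSC), INHBB (4.83 and 3.84), ENG (2.96 and 3.68) and TGFB1 (2.45 and 5.35) were higher in OVCAR3-CTR in both cultures, and TGFBR1 (-1.68 and -1.12), ID2 (-3.77 and -1.82) and SMAD9 (-2.32 and -1.26) were lower. The OCSC values of NOG and TGFB1 rested on 2 and 3 counts in COV318-CTR. BMP2 was lower in OVCAR3-CTR with 1 count against 158 in bulk (-5.08, -11.10 to -3.29) and with 0 counts against 31 in OCSC, at least 16.4-fold lower. CCN2 was lower in OVCAR3-CTR in bulk (-1.59) and higher in OCSC (1.07, 0.86 under CPM).

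Other genes of the pathway were counted from a list of 63 measured genes. In OVCAR3 bulk, 12 of 52 were called with MGP knockout, 8 higher and 4 lower, near the background of 24.1%. ATOH8, a BMP-induced transcription factor, was highest among them, with 2 and 76 counts (log2FC 4.43, 2.92 to 7.90), followed by the antagonist CHRDL1, at 81.7 and 493 (log2FC 2.58, 2.18 to 3.03). PMEPA1, a TGF-beta-induced inhibitor of SMAD2 and SMAD3, was lowest, at 3796 and 270.0 (log2FC -3.81, -4.01 to -3.62). In OVCAR3 OCSC 8 of 54 were called, 4 in each direction, near 14.9%, and PMEPA1 was again the lowest, at 273 and 53.3 (log2FC -2.33, -2.78 to -1.95).

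In COV318 bulk, 43 of the 63 were called with MGP, 16 higher and 27 lower, against 50.8%, and in OCSC 38 of 60, 25 higher and 13 lower, against 54.2%. HEY1, a Notch and BMP target, was at 14.0 and 4288 in bulk and 10.4 and 3036 in OCSC (log2FC 8.16, 7.71 to 8.87, and log2FC 8.06, 7.14 to 9.51), and the ligand GDF7 had 2 and 1576 counts in bulk. TAGLN, an actin-binding protein of smooth muscle, was at 13429 and 25.8 in bulk (log2FC -8.97, -9.47 to -8.61) and 168 and 21.5 in OCSC (log2FC -2.91, -3.85 to -2.18). THBS1, encoding the matrix protein thrombospondin-1, which can activate latent TGF-beta, was at 2889 and 18.1 in bulk (log2FC -7.24, -7.85 to -6.82) and 379 and 27.2 in OCSC (log2FC -3.75, -4.56 to -3.13). The 12 other TGF-beta and BMP target genes on this list, TAGLN among them, did not share 1 direction. With MGP 5 were called higher and 6 lower in bulk, against 24.5% and 26.3% of all genes. In OCSC 7 were called higher and 2 lower, against 27.0% and 27.3%. Mesenchymal markers, summed, stood at 17593 in COV318-CTR and 14423 in COV318-MGP bulk but at 4864 and 23818 in OCSC. VIM carried most of each sum, at 11782 and 13625 in bulk and 4311 and 22544 in OCSC. COL3A1 was at 5606 and 460 in bulk and 514 and 839 in OCSC. Of the 8 tested in bulk, 2 were called higher and 3 lower with MGP, beside the same shares of all genes. In OCSC 5 of 7 were called higher and 0 lower. The 4 endothelial markers, summed, were at 1073 and 20.3 in bulk and 1263 and 20.0 in OCSC. The part of these markers in the values was not tested.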

How the data were processed

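The genes were chosen by name with earlier results of these data known, as were the other gene lists, the markers and the motifs. RNA was sequenced as paired reads in 8 libraries, 1 per condition, aligned by the authors to hg38 with STAR (2.7.5c per the submitters' processing notes) and deposited as raw counts per gene. In 8 further tables, 1 per library, the authors deposited a normalized signal, that is each count over DESeq2's median-of-ratios size factor. The annotation, the kit used for each library and the use of strand in counting are not given in the sources used here.

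Libraries were grouped from the labels and held 12294591 to 37393919 counts. All 20339 genes reach 10 counts in some library. Size factors were recomputed over 15518 genes above 0 in all libraries and returned the deposited values to within 7.5e-10 in relative terms. Differences were taken as log2 ratios of normalized counts with a pseudocount of 1 among genes with more than 3 counts in the pair, and called at a size of 1, without a test because there are no replicates. A gene at 0 counts was set against a floor of 3 counts (0.0802 to 0.244 CPM, depending on the library). Exact 95% Clopper-Pearson intervals cover counting error only, and reads without molecular identifiers are not independent molecules. Levels per kilobase used merged exons of GENCODE on hg38, and promoter sequences came from RefSeq (GRCh38.p14). All listed genes were named, and of 63 other pathway genes up to 3 per direction with the largest log2FC among those called with at least 50 counts. Alternatives were TMM (edgeR 4.0.16), CPM, size factors within each pair, pseudocounts of 0.5, 5 and 10, other count minimums and, chosen after seeing the data, canonical transcript lengths. Scripts (Python 3.11.15, scipy 1.17.1) were tested on simulated data. GREM1 was not analysed here, and 1 further gene that the naming rule selected is counted in its list but not reported here.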

Additional observations from a re-analysis of the deposited data

Results flagged for a closer look

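Members were looked at again where the same contrast gave calls in opposite directions in 2 settings and both counting intervals excluded no change. With 1 library per condition, none of these differences was tested.

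With MGP knockout in OVCAR3, ID1 had a log2FC of -1.24 in OCSC and 1.87 in bulk, a difference of -3.11, and BMPER had -2.83 and 1.90, a difference of -4.73. With MGP expression in COV318, TGFBR3 had -1.36 in OCSC and 1.51 in bulk (difference -2.88), GDF11 had -1.18 and 1.03 (difference -2.21), and FST had 1.45 and -1.31 (difference 2.76), the OCSC value of FST resting on 7 and 21 counts.

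For spheres against adherent cells, BMP4 had -1.94 in COV318-CTR and 2.37 in OVCAR3-CTR, a difference of -4.31, and TGFB1 had -1.82 and 1.07, a difference of -2.89. The COV318-CTR value of TGFB1 rested on 34 counts in bulk and 3 in OCSC, and its OVCAR3-CTR value lay within the threshold under CPM.

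The COV318-MGP cells differed in direction from other cell types for the same contrast of culture in a few genes. Against COV318-CTR, CCN2 had 3.81 and -4.28 (difference 8.09), ID1 had 1.26 and -3.02 (difference 4.28) and TGFB1 had 1.78 and -1.82 (difference 3.60). Against OVCAR3-CTR, CCN2 had 3.81 and -1.62 (difference 5.43). Against OVCAR3-MGPKO, ID1 had 1.26 and -2.74 (difference 4.01) and SMAD3 had 1.36 and -1.54 (difference 2.91). These differences share the COV318-MGP libraries, and all pairs of the 4 cell types were compared.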

How the results depend on the processing

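With 1 library per condition no replicate could be left out. No paired analysis was possible because the labels give no replicate numbers. Of the counts of members called in the 10 comparisons, 1 moved by over 1.5 times under the alternatives tried: spheres against adherent COV318-MGP cells gave 6 calls and, with CPM, 10 (4 higher and 6 lower). No difference of a member that was called changed sign under another scaling, pseudocount or count minimum. Relative to the main scaling, CPM moved the median log2FC of all genes by 0.29 in COV318 bulk with MGP, by -0.21 in COV318-MGP spheres and in the OCSC of the control lines, and by 0.14, 0.12 and 0.14 in OVCAR3 bulk, OVCAR3 OCSC and COV318-CTR spheres, and TMM by 0.10 in COV318 bulk and -0.12 in COV318-MGP spheres. Of the calls, 12 lay within the threshold under at least 1 other scaling, among them TGFB3 and SMAD3 in COV318 bulk and ACVR1B in COV318 OCSC under all 3. Shares within families moved with canonical transcript lengths, with the order of the leading ligand kept in the COV318-MGP libraries for TGFB1 and BMP2. Depth limits BMP2, BMP5, INHBA, ACVRL1 and ID3, which had 3 counts or fewer in at least 4 libraries, so that absence or a small difference could not be told from counting error.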
